A study of Danio rerio with 30 samples.

Results

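The microRNAs (miRNAs) miR-144 and miR-451 were followed in the spleens of adult zebrafish (Danio rerio, AB strain, 100 days of age) as a measure of the red-cell RNA in each small RNA library. Rows of the count table were taken when the name, without its 3-letter species prefix, began with miR-144 or miR-451 and the row had counts in 5 or more libraries. This gave 10 rows of the 8866 in the table: 7 named miR-144 and 3 named miR-451. The table holds 32 rows of these families, of which 13 had a count in any library. The 3 rows left out at the limit were oni-miR-144b with counts in 3 libraries, ola-miR-144 in 2 and oni-miR-144a in 1. The rows just inside it, dre-miR-144-3p, pol-miR-144-3p and ssa-miR-144-3p, had counts in 5 libraries each. The prefix names the species of the reference entry (dre for zebrafish, ssa for Atlantic salmon, ccr for carp, oni for Nile tilapia), while all reads came from zebrafish spleens.

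The 30 libraries form 6 groups of 5. Eggs and larvae were kept at 24, 28 or 32 °C, and at each temperature 5 libraries came from LPS fish and 5 from controls. Per the labels' protocols, LPS fish were injected intraperitoneally with 2 µl of lipopolysaccharide (LPS, a bacterial wall component, here of Pseudomonas aeruginosa) at a concentration of 50 mg/ml, and the spleen was taken 12 h later. Strain, age and tissue were the same in every group; the sources used here do not say if control fish had an injection, of which sex the fish were or if a library is 1 fish, so p-values measure the spread between these samples. Library totals ran from 199431 to 7584818 counts, with medians of 352754 at 24 °C, 697494 at 28 °C and 1066364 at 32 °C (10 libraries each), so depth and temperature moved together. Leukocyte miRNA families (miR-142, miR-150, miR-155, miR-181 and miR-223) held 1.18 to 5.69% of the counts of each library. With no other tissue beside it, this share does not test the tissue label.

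In vertebrates miR-144 and miR-451 are cut from a single primary transcript, which the red-cell transcription factor GATA1 switches on. The genes mir144 and mir451a are neighbours on chromosome 5 in the RefSeq annotation of the zebrafish assembly GRCz12tu. The miR-451 hairpin is too short for Dicer, the enzyme that cuts most miRNAs, and is sliced by Argonaute2 instead; in zebrafish embryos its loss impairs red-cell maturation. Fish red cells keep their nuclei, and the spleen stores and clears red cells, so their RNA belongs to this organ. In bulk spleen, fewer red cells and less miRNA per red cell cannot be told apart.

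The family was mostly miR-451 and the 5p arm of miR-144. The 10 rows held 630260 counts, 1.61% of the 39070530 counts in the table. Of these, dre-miR-451 held 67.8%, dre-miR-144-5p 22.5% and ssa-miR-144-5p 9.01%, together 99.3%. These 3 rows had counts in 30, 29 and 28 libraries. Rows named for the 5p arm held 198526 counts and rows named for the 3p arm of miR-144 held 1213, and between the zebrafish rows the ratio of the 5p to the 3p arm was 384. The strands of a miRNA hairpin are seldom kept equally. Here the rows named for the 3p arm of miR-144 were nearly uncounted, while rows named miR-144 without an arm held 2169 counts. Whether the arms or the assignment of reads to names made this difference was not tested. miR-486, another miRNA abundant in mammalian red cells, has 6 rows in the table and had 0 counts in all of them.

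miR-451 overlapped between all groups. Levels are given in CPM, a row's counts as parts of its library's total, with totals scaled by TMM (trimmed mean of M values, which evens out differences in library make-up). At 24 °C dre-miR-451 had 1122, 1204, 2167, 2541 and 3337 CPM in LPS fish, against 1663, 1849, 4449.8, 5439 and 10832 CPM in controls. At 28 °C it had 1144, 1759.9, 4471, 5505 and 7511 CPM in LPS fish, against 1216, 2282, 4007, 6681 and 9721 CPM in controls. At 32 °C it had 365, 709.5, 1027, 2259 and 24957 CPM in LPS fish, against 1704, 1724, 3945, 7886 and 52781 CPM in controls. Both the lowest and the highest values of the series lay at 32 °C, and 1 library in each 32 °C group stood far above the other 4. The medians of the temperatures were 2354 CPM at 24 °C, 4239 CPM at 28 °C and 1991 CPM at 32 °C (10 libraries each), and the group medians ran from 1027 CPM in 32 °C LPS fish to 4471 CPM in 28 °C LPS fish. No contrast between groups passed for this row. Within a library dre-miR-451 was between the 5th and the 92nd most counted row.

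**Figure D1:**
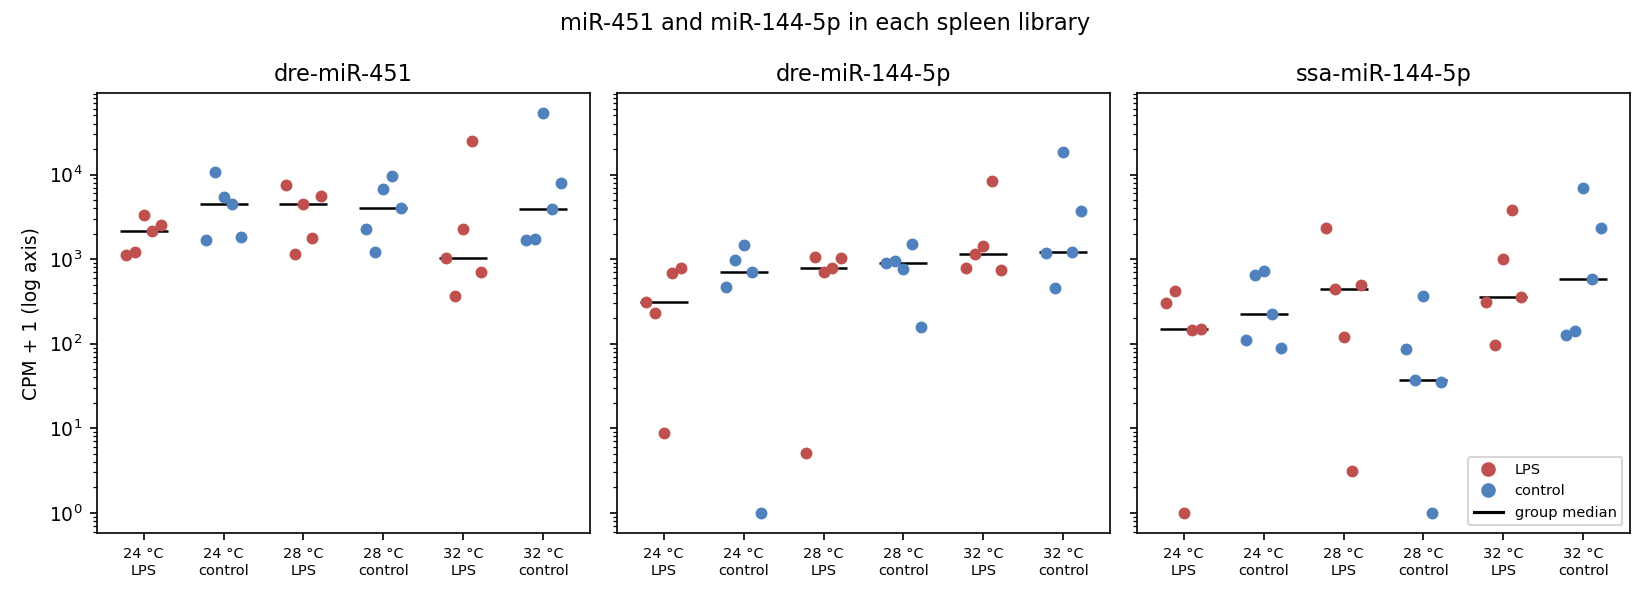
CPM + 1 (log axis) of dre-miR-451, dre-miR-144-5p and ssa-miR-144-5p in each of the 30 spleen libraries, by incubation temperature and treatment; each point is a library, red for LPS and blue for control, and the bar is the group median. In both 32 °C groups 1 library stands above the rest (24957 CPM of dre-miR-451 in an LPS library and 52781 CPM in a control library), and 3 libraries at 24 and 28 °C have almost no dre-miR-144-5p.

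dre-miR-144-5p had its highest levels at 32 °C. At 24 °C it had 7.75, 232, 313, 693 and 788 CPM in LPS fish, against 0, 465, 709, 985 and 1480.4 CPM in controls. At 28 °C it had 4.08, 699, 794, 1023 and 1052 CPM in LPS fish, against 158, 767, 889, 946 and 1504 CPM in controls. At 32 °C it had 753, 783, 1163, 1434 and 8472 CPM in LPS fish, against 457, 1185, 1219, 3718 and 18404 CPM in controls. No 32 °C library fell below 457 CPM, while the 24 °C libraries spread from 0 (a count of 0 allows up to 8.56 CPM in that library) to 1480.4 CPM, and the ranges overlapped. The medians were 579 CPM at 24 °C, 842 CPM at 28 °C and 1202 CPM at 32 °C.

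ssa-miR-144-5p, the salmon-named row of the same arm, had 0, 146, 149, 303 and 423 CPM in LPS fish at 24 °C, against 88.5, 109, 222, 653 and 731 CPM in controls. At 28 °C it had 2.16, 120.0, 439, 489 and 2346 CPM in LPS fish, against 0, 34.6, 36.5, 85.6 and 369 CPM in controls. At 32 °C it had 95.7, 309, 354, 1000.1 and 3791 CPM in LPS fish, against 126.4, 141.8, 584, 2356 and 6924 CPM in controls. The groups overlapped at each temperature, and the 28 °C controls were lowest by their median of 36.5 CPM. Whether this row and dre-miR-144-5p hold reads of 1 mature miRNA divided by the counting, or distinct sequences, is not shown by the table, so both rows are uncertain as levels of their own.

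The division of miR-144-5p reads between these 2 names differed widely from library to library. The salmon-named row took 99.8% of them in replicate 1 of the 28 °C LPS fish (575 counts, against 1 count in the zebrafish row; 95% Clopper-Pearson interval 99.0 to 100.0%). It took 0 of 554 in replicate 5 of the 28 °C controls (interval up to 0.664%). In replicate 9 of the 24 °C controls the zebrafish row had 0 counts and the salmon row 31, and in replicate 3 of the 24 °C LPS fish the zebrafish row had 3 and the salmon row 0. At 32 °C the share ran only from 7.60 to 41.1% (median 29.6%, 10 libraries), against 0 to 100% at 24 °C (median 28.4%). Thus 2 of the 3 libraries with almost no dre-miR-144-5p had reads of the arm under the other name. These intervals and all floors cover counting error only, since PCR copies were not stated to be removed.

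Across all 10 rows, the family held 0.136 to 5.19% of a library's counts, with a median of 0.418%. By temperature the medians came to 0.404% at 24 °C, 0.504% at 28 °C and 0.377% at 32 °C. Replicate 5 of the 32 °C LPS fish held 2.01% (interval 1.99 to 2.02%) and replicate 7 of the 32 °C controls 5.19% (5.17 to 5.21%). Every other library lay between 0.136 and 1.42%. These 2 libraries are also the deepest of the series (5977392 counts in the LPS library and 7584818 in the control library), with TMM factors of 0.535 and 0.664. They hold 34.7% of all counts but 81.5% of the family's counts. In CPM with TMM scaling, and against the median of the other 28 libraries, dre-miR-451 was 10.99-fold higher in the LPS library and 23.2-fold higher in the control library. dre-miR-144-5p was 10.8-fold higher in the LPS library and 23.4-fold in the control library, and ssa-miR-144-5p 20.4-fold and 37.3-fold. The excess was thus of like size for dre-miR-451 and dre-miR-144-5p and larger for ssa-miR-144-5p. These 2 libraries were singled out for their high family share.

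The family was not alone in these 2 libraries. Of the 364 rows that passed the count filter, 63 had both libraries above all 28 others, among them 3 of the 5 family rows that passed it. Families of vascular and stromal cells (miR-126, miR-143, miR-145, miR-199 and miR-214) held 8.37% of the counts in the LPS library and 17.5% in the control library, against 0.614 to 5.58% in the other 28. The leukocyte families held 2.24% and 1.82%, inside the range of the others. Whether the vascular rows and depth play a part in the family's level in these libraries was not tested.

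**Figure D2:**
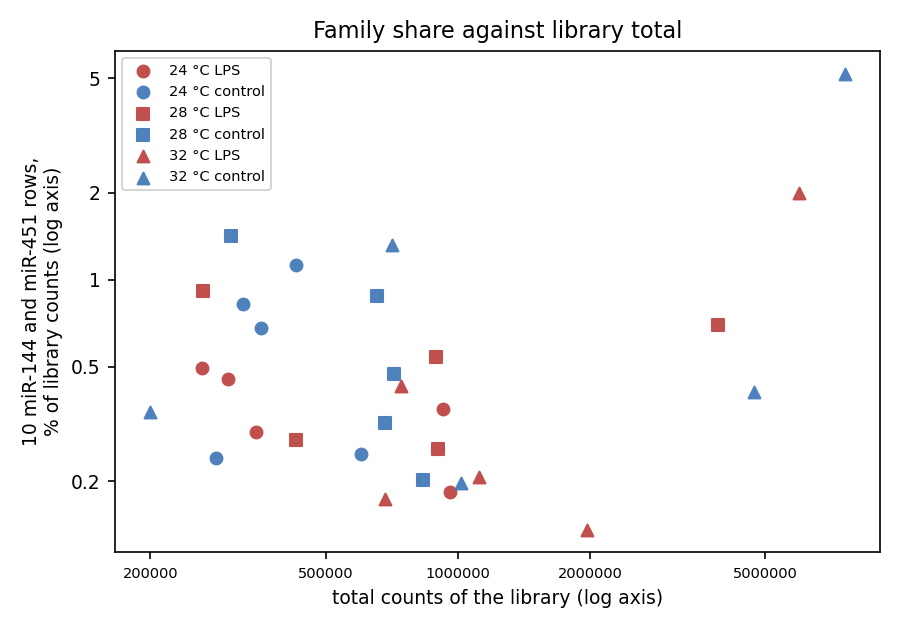
Share of each library's counts held by the 10 miR-144 and miR-451 rows (%, log axis) against the library total (counts, log axis); each point is a library, with shape for temperature and colour for treatment. The 2 deepest libraries, both from 32 °C, hold 2.01% (LPS) and 5.19% (control), and the other 28 spread from 0.136 to 1.42%.

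Temperature comparisons were made with edgeR's quasi-likelihood test, fitted over all 364 tested rows with Benjamini-Hochberg adjustment and a threshold of 0.05. The filter on low counts kept 5 of the 10 family rows: dre-miR-144-5p, dre-miR-451, ssa-miR-144-5p, ccr-miR-144 and oni-miR-451b. Between 32 and 24 °C, averaged over treatments, 2 of the 5 passed, both higher at 32 °C (51 rows higher and 9 lower among all tested rows, 16.5% in all). One of these, oni-miR-451b, met the 5-library rule and the count filter through its 32 °C libraries, so that this count is no support for a change of the family. dre-miR-144-5p averaged 3759 ± 5683 CPM at 32 °C and 567 ± 461 CPM at 24 °C (± SD, 10 libraries each), a log2 difference of 2.71 ± 0.82 (SE; edgeR adjusted p = 0.0191). The median tested row differed by 0.81 in the same direction, which leaves 1.90 above it. dre-miR-451 averaged 9736 ± 16837 CPM at 32 °C and 3461 ± 2947 CPM at 24 °C, with a log2 difference of 1.49 ± 0.63 that did not pass (edgeR adjusted p = 0.103). ssa-miR-144-5p differed by 2.47 ± 0.98 (edgeR adjusted p = 0.0763) and ccr-miR-144 by 0.83 ± 1.66 (edgeR adjusted p = 0.778).

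Some markers of other cell types also passed in this comparison. Over all 364 tested rows 16.5% passed, 62.9% had a positive difference and the median log2 difference was 0.81. The shares called in the vascular, gut and pancreas lists were close to that of all rows. Of the vascular and stromal rows 4 of 24 passed higher and 0 lower, and their summed share was 1.196 to 17.5% at 32 °C and 0.614 to 3.07% at 24 °C. The 1 tested row of the liver list, dre-miR-122, passed (log2 difference 3.16), with a summed share of 0.0283 to 3.86% at 32 °C and 0.0126 to 0.307% at 24 °C. Of the gut and epithelial rows 2 of 13 passed higher and 12 had a positive difference (median log2 difference 3.29; summed share 0.0051 to 1.37% at 32 °C and 0.0382 to 0.250% at 24 °C). Of the pancreas rows 1 of 6 passed higher, dre-miR-217 (summed share 0.0162 to 0.615% at 32 °C and 0.0387 to 0.945% at 24 °C), of the muscle rows 0 of 3, and of the leukocyte rows 2 of 22 higher and 1 lower. Their part in the family's difference was not tested.

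The call for dre-miR-144-5p rested on single libraries. Without replicate 5 of the 32 °C LPS fish its log2 difference was 1.95 (edgeR adjusted p = 0.104), without replicate 7 of the 32 °C controls 1.52 (0.232) and without both 1.26 (0.345). With the log2 library total as a covariate it was 1.18 (0.594), and with libraries scaled to their total counts alone 2.01 (0.0771). dre-miR-451 turned round: without those 2 libraries it differed by -0.66 between 32 and 24 °C (0.435), and with the total as a covariate by -0.41 (0.883). Without them the 8 remaining 32 °C libraries had a median of 1714 CPM of dre-miR-451, against 2354 CPM at 24 °C. For dre-miR-144-5p the same 8 libraries had a median of 1174 CPM, against 579 CPM.

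oni-miR-451b, a row named for a tilapia miR-451 copy, was the other row that passed between 32 and 24 °C (edgeR adjusted p = 0.00793). Since it had almost no counts elsewhere, it could be tested only because it was high at 32 °C. It had counts in 6 of 10 libraries at 32 °C, between 20 and 136 counts each (507 in all), and in 0 of 10 at 24 °C. Pooled over the libraries, and without TMM, it had 20.5 CPM at 32 °C, at least 32.8-fold higher than the 0.626 CPM that a count of 0 allows over the 24 °C group (3 counts). At 28 °C it had 107 counts in 1 library and 1 count in another. The call was lost with the library total as a covariate (edgeR adjusted p = 0.175). DESeq2 gave the row no adjusted p, and it did not pass the count filter with libraries thinned to equal totals or with the stricter filter.

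**Figure D3:**
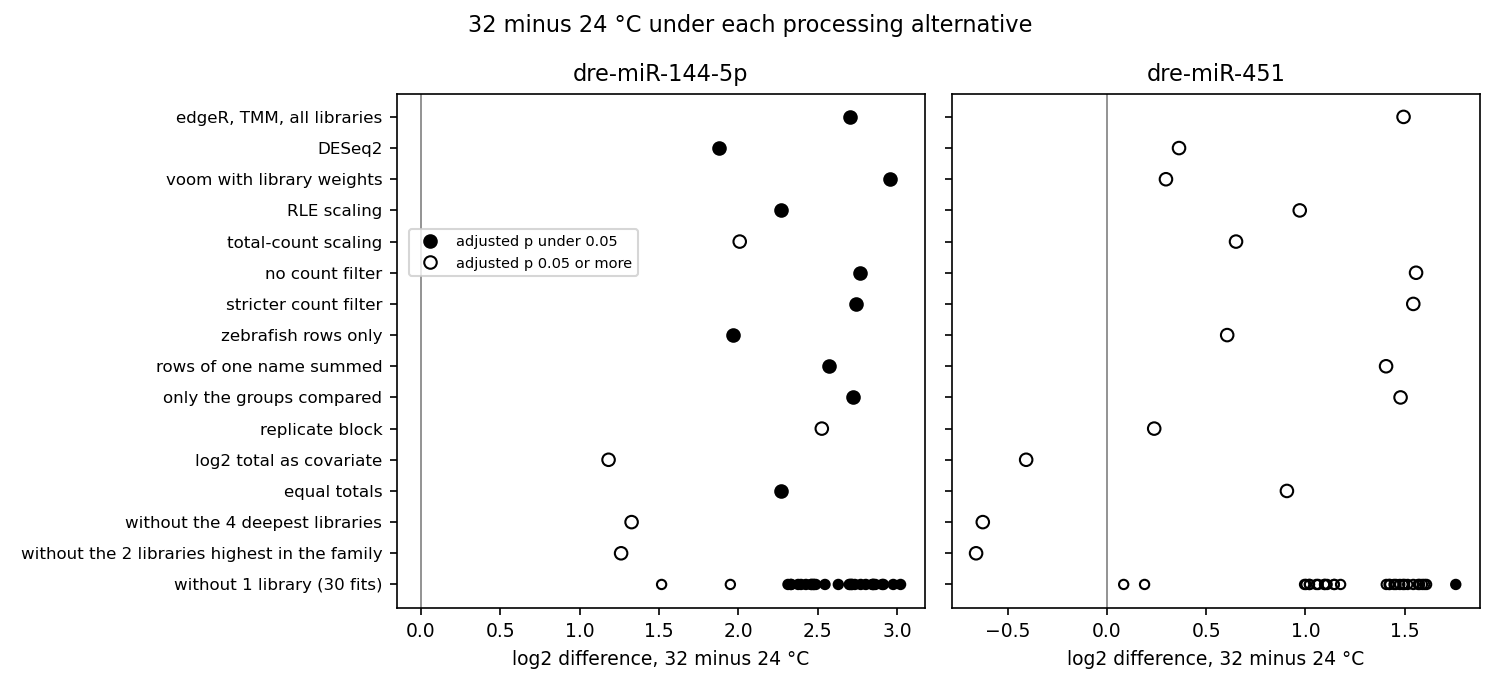
Log2 difference, 32 minus 24 °C averaged over treatments, of dre-miR-144-5p (left) and dre-miR-451 (right) under each processing alternative. Each alternative has 1 row, except that the fits without 1 library share the last row and each counts as an alternative. With rows of one name summed, the left circle is of the zebrafish and salmon miR-144-5p rows together. Filled circles have an adjusted p under 0.05. dre-miR-144-5p stays above 0 throughout (1.18 to 3.02) but is not called in 7 alternatives, and dre-miR-451 falls below 0 in 3.

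No other temperature comparison called a family row with edgeR. The contrasts with 32 °C share the 32 °C libraries. Between 32 and 28 °C the log2 differences were 2.18 ± 0.80 for dre-miR-144-5p (edgeR adjusted p = 0.0939), 1.02 ± 0.63 for dre-miR-451 (0.333) and 2.49 ± 0.98 for ssa-miR-144-5p (0.102), where 2.75% of tested rows passed and the median row differed by 0.83. At an unadjusted p under 0.05 there were 3 of the 5 family rows and 87 of all 364 rows in that comparison. DESeq2 called ccr-miR-144 there with a log2 difference of 7.82. Yet its mean was 13.0 CPM at 32 °C and 48.5 CPM at 28 °C, with 0 CPM in every 28 °C LPS library. limma voom called oni-miR-451b there (2.97), which met the count filter through its 32 °C libraries. These calls are thus no support for a rise of the family at 32 °C. Between 24 and 28 °C dre-miR-144-5p differed by -0.52 ± 0.77 (0.834) and dre-miR-451 by -0.48 ± 0.62 (0.834), where 0% passed. In controls alone, between 32 and 24 °C, dre-miR-144-5p differed by 2.78 ± 1.16 (0.150) and dre-miR-451 by 1.49 ± 0.90 (0.353), where 0.824% passed. In LPS fish alone they differed by 2.63 ± 1.15 (0.189) and 1.499 ± 0.90 (0.409), where 0.549% passed. These within-treatment values were of like size, and the joint test of the interaction between temperature and LPS gave edgeR adjusted p between 0.433 and 1.00 for the 5 rows, where 0% passed.

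LPS did not move a family row past the threshold at any temperature. Averaged over temperatures, dre-miR-451 had a median of 2167 CPM in LPS fish and 4007 CPM in controls (n = 15 each), a log2 difference of -0.89 ± 0.51 (edgeR adjusted p = 0.625, unadjusted 0.0893). Its log2 difference was -1.22 ± 0.89 at 24 °C, -0.23 ± 0.88 at 28 °C and -1.21 ± 0.89 at 32 °C, all 3 below 0 and none past the threshold (edgeR adjusted p = 0.775, 0.975 and 0.999). Over single left-out libraries the difference at 32 °C ran from -2.90 to 0.17, the latter without replicate 7 of the 32 °C controls. With that library and replicate 5 of the 32 °C LPS fish both left out, the 32 °C medians were 868 CPM in LPS fish and 2834 CPM in controls (n = 4 each). Averaged over temperatures, dre-miR-144-5p differed by -0.69 ± 0.63 (0.817) and ssa-miR-144-5p by 0.33 ± 0.76 (0.942). The latter average joins values of opposite sign. ssa-miR-144-5p differed by -0.82 ± 1.32 at 24 °C, 2.69 ± 1.40 at 28 °C (edgeR adjusted p = 0.415) and -0.87 ± 1.32 at 32 °C, none past the threshold. In the averaged comparison 0.549% of tested rows passed, and at 24, 28 and 32 °C 0% did; at an unadjusted p under 0.05 there were 44, 48 and 7 rows by edgeR, of which 0, 1 and 0 were of the family. The row was ccr-miR-144 at 28 °C, with 0 counts in LPS fish, against 178 counts in replicate 5 of the controls and 1 in replicate 2, so that it rests on 1 library. Over all temperatures ccr-miR-144, named for the carp miRNA, had 175 counts in LPS libraries and 620 in control libraries (edgeR adjusted p = 0.203); DESeq2 called it in this comparison and at 28 °C, and limma voom called no family row in either.

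The ratio of miR-144-5p to miR-451 within a library does not depend on how libraries are scaled, and was added after the levels had been seen. On a log2 scale with 1 count added to each row, dre-miR-144-5p over dre-miR-451 averaged -0.76 ± 1.07 at 32 °C and -3.50 ± 2.88 at 24 °C (± SD, 10 libraries each). The difference was 2.74, below the SD at 24 °C but past the threshold (permutation test, two-sided, 100000 draws, p = 0.00012, adjusted over 6 comparisons 0.00072). Of the 32 °C libraries 8 of 10 lay above every 24 °C library. Without the log2, and with the same 1 count added, the median was 1.85 reads of dre-miR-451 per read of dre-miR-144-5p at 32 °C. It was 4.41 at 24 °C and 5.88 at 28 °C. With both 5p rows summed the log2 ratio averaged -0.29 ± 0.99 at 32 °C and -2.50 ± 2.30 at 24 °C, a difference of 2.22 (permutation adjusted p = 0.00504), and 6 of 10 lay above every 24 °C library.

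The shift in ratio was as large without the 2 libraries of highest family share. Without them the difference between 32 and 24 °C was 2.94 (permutation adjusted p = 0.0145), and without the 4 deepest libraries it was 3.10 (0.0313). It was smaller without the libraries with very few miR-144-5p reads. Without those under 6 counts it was 1.41 (0.00858), and 1.26 (0.0268) with both rows summed. Within controls alone it was 2.48 and within LPS fish alone 3.004 (exact permutation tests, adjusted p over 3 comparisons 0.0714 and 0.0238), so the control value did not pass by itself. With both rows summed it was the other way round, 1.54 within controls (0.0476) and 2.90 within LPS fish (0.0714). Across the 30 libraries the ratio rose weakly with the log2 library total (r = 0.36, rho = 0.40, permutation p = 0.0471). It kept r = 0.40 without the 2 deepest libraries, and r was 0.17 with group means removed. The part of depth in the ratio was not tested beyond this.

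Against 28 °C the picture was similar but less firm. The log2 ratio averaged -0.76 ± 1.07 at 32 °C and -2.84 ± 2.81 at 28 °C, a difference of 2.08 (permutation p = 0.0177, adjusted 0.0530). With both rows summed it averaged -0.29 ± 0.99 and -1.79 ± 1.34, a difference of 1.502 that passed (adjusted 0.0264). Between 24 and 28 °C the difference was -0.66 (adjusted 0.760). LPS fish had a higher ratio than controls at 32 °C, -0.17 ± 1.19 against -1.35 ± 0.55 (n = 5 each), a difference of 1.18 that did not pass (exact permutation p = 0.0635, adjusted 0.127). With both rows summed that difference was 1.21 (exact permutation p = 0.0397, adjusted 0.0794). LPS minus control was 0.66 at 24 °C and -0.81 at 28 °C with the zebrafish row, and -0.15 and 0.88 with both rows summed (exact permutation adjusted p from 0.476 to 0.984), so its sign was not the same throughout. The only libraries with more dre-miR-144-5p than dre-miR-451 were replicates 2 and 7 of the 32 °C LPS fish.

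**Figure D4:**
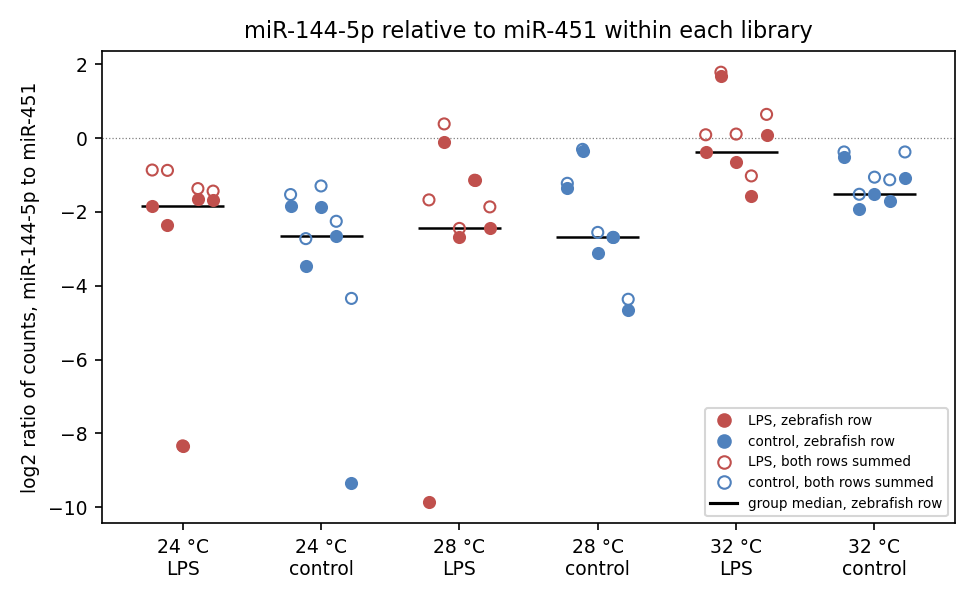
Log2 ratio of miR-144-5p to miR-451 counts in each library (1 count added to each), by temperature and treatment; filled points use the zebrafish miR-144-5p row, open points the zebrafish and salmon rows summed, and the bar is the group median of the filled points. The 32 °C libraries lie between -1.91 and 1.67 (filled), while 24 °C libraries reach -9.34 and 28 °C libraries -9.85. With both rows summed these lowest libraries lie at -4.34 (24 °C) and -1.67 (28 °C), and replicate 3 of the 24 °C LPS fish lies at -8.34 in both.

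The levels of the 3 main rows followed each other only loosely over the 30 libraries. On log2(CPM + 1) values Pearson's r between dre-miR-144-5p and dre-miR-451 was 0.27 (rho 0.34; permutation adjusted p over 6 relations 0.154), which are cut from the same transcript. It was 0.46 without the 2 libraries lowest in dre-miR-144-5p, and -0.02 without the 2 libraries of highest family share. dre-miR-144-5p and ssa-miR-144-5p had r = 0.33 (rho 0.42, adjusted p = 0.109), and r = 0.64 without the 2 libraries lowest in dre-miR-144-5p. dre-miR-451 and ssa-miR-144-5p had r = 0.32 (rho 0.38, 0.109), and 0.06 without the 2 highest libraries, on which the relation rests. Depth went with the 5p rows: the log2 library total had r = 0.53 with dre-miR-144-5p (rho 0.29; adjusted p = 0.0200), 0.48 with ssa-miR-144-5p (rho 0.38; 0.0225) and 0.31 with dre-miR-451 (rho -0.05; 0.109). Without the 2 deepest libraries these were 0.37, 0.30 and -0.15.

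The 7 minor rows were counted in few libraries and in large steps. Of their 210 values (7 rows in 30 libraries) 165 were 0, 15 lay between 1 and 5 counts and 30 were 17 or more, with 0 values in between. dre-miR-144-3p had 74 counts in replicate 5 of the 32 °C LPS fish, 229 and 64 in replicates 7 and 8 of the 32 °C controls, and 1 count in each of 2 libraries at 24 °C. pny-miR-144 had 298 of its 1374 counts in replicate 5 of the 32 °C LPS fish and 913 in replicate 7 of the 32 °C controls. gmo-miR-451-3p, named for the passenger side of the cod hairpin, had its highest count in replicate 7 of the 28 °C controls, 101 counts in replicate 5 of the 32 °C LPS fish and at most 4 elsewhere. pol-miR-144-3p had 21 counts in replicate 5 of the 24 °C controls and 3 larger counts, 1 in replicate 2 of the 24 °C LPS fish, 1 in replicate 3 of the 28 °C controls (238 counts) and 1 in replicate 5 of the 32 °C LPS fish (210 counts), and so followed no group. ssa-miR-144-3p had 99 of its 156 counts in replicate 5 of the 32 °C LPS fish.

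Other miRNAs abundant in red cells were set beside the family. The list held the families miR-15, miR-16, miR-25, miR-92, miR-363 and miR-486, with 16 tested rows. Between 32 and 24 °C 2 of the 16 passed, both higher at 32 °C, and 0 passed lower, a share under the 16.5% of all tested rows; the median difference was 0.43, against 0.81 over all tested rows. dre-miR-16b, of a family known to repress cell-cycle genes, had a median of 5613 CPM at 32 °C and 1793 CPM at 24 °C (log2 difference 2.93 ± 0.54, edgeR adjusted p = 0.000287). dre-miR-16c-5p, of the same family, had medians of 1182 CPM at 32 °C and 518 CPM at 24 °C (2.31 ± 0.67, edgeR adjusted p = 0.0158). Without the 2 libraries of highest family share the 32 °C medians were lower, 2871 CPM for dre-miR-16b and 989 CPM for dre-miR-16c-5p (8 libraries). dre-miR-92a-3p, of the miR-17-92 cluster and the most abundant of the list, averaged 152851 ± 111545 CPM at 32 °C and 197877 ± 59295 CPM at 24 °C (-0.42 ± 0.36, edgeR adjusted p = 0.436). dre-miR-25-3p differed by 0.40 ± 0.43 (0.558). In replicate 5 of the 32 °C LPS fish this list held 7.05% of the counts, against 10.3 to 32.4% in the other 4 libraries of its group. In replicate 7 of the 32 °C controls it held 6.27%, against 7.57 to 21.7% in the other 4. In both 32 °C groups, and in the 28 °C controls, the list's share was thus lowest in the library with the most dre-miR-451. It was not lowest there in the other 3 groups, where that library held 22.8% (24 °C LPS, group low 14.7%), 25.4% (24 °C controls, group low 16.98%) and 21.6% (28 °C LPS, group low 15.0%). The list's share follows mainly its largest member, dre-miR-92a-3p (mean 186290 CPM, against 5954 for dre-miR-16b and 4210 for dre-miR-25-3p). Some other members went the other way in the 2 libraries of highest family share. dre-miR-16b had 38286 CPM in the LPS library and 35939.5 CPM in the control library, against a median of 2309 CPM in the other 28. dre-miR-16c-5p was there also the highest of its group (9351 and 13432 CPM).

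Of 86 other zebrafish-named rows with counts in 20 or more libraries, the 5 whose log2 CPM went most closely with dre-miR-451 over the 30 libraries were dre-miR-26b (r = 0.69), dre-miR-26a-5p (0.67), dre-miR-22b-3p (0.65), dre-miR-16b (0.55) and dre-miR-22a-3p (0.50). These points share library depth and scaling. dre-miR-22b-3p lay near the count floor, with a mean of 30.2 CPM and a median of 2.33 CPM outside the 2 libraries of highest family share. Without the 2 libraries of highest family share the values were 0.40, 0.41, 0.45, 0.21 and 0.02. dre-miR-26b had 15751 CPM in the LPS library and 29473 CPM in the control library of that pair, against a median of 1397 CPM in the other 28. dre-miR-22a-3p had 39979 CPM in the LPS library and 49215 CPM in the control library, against a median of 5530.2 CPM in the other 28.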

How the data were processed

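Small RNA was sequenced from 30 spleen samples. Per the labels' protocols, libraries were made from 50 ng of total RNA with a NEXTflex kit (4N adapters on both ends) and amplified over 22 cycles; removal of PCR copies is not stated. The deposited values are raw counts of reads per miRNA row, whole numbers in a single table that the authors made. Tools named in the submitters' processing notes are cutadapt 1.12, bcl2fastq, DESeq2 1.11.1 and FastQC 0.11.5. The aligner, counting tool and miRNA reference: not given in the sources used here. Members and lists were chosen with earlier results of these data known.

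Rows were kept by filterByExpr on the 6 groups (364 rows, 99.8% of counts), scaled by TMM and fitted with edgeR 4.0.16 (R 4.3.3, robust quasi-likelihood, 1 mean per group, 24 residual degrees of freedom). P-values were adjusted over all 364 rows (Benjamini-Hochberg, threshold 0.05). The SE of an edgeR log2 difference was derived from the test, as its size divided by the square root of the F statistic. The common biological coefficient of variation was 1.79. Totals of 199431 to 7584818 counts set the precision: 3 counts are the limit that a count of 0 allows. Shares carry 95% Clopper-Pearson intervals. Ratios and correlations were tested by permutation, exact for 5 against 5 and with 100000 draws otherwise. Named rows were every member, the 5 rows most like dre-miR-451, and, of the list of other red-cell miRNAs, the 4 most abundant and any called; rows named in other lists came after their values were seen. Alternatives were DESeq2 1.42.0, limma 3.58.1 voom, other scalings and filters, equal totals, a depth covariate, a replicate block and left-out libraries. The fit was tested on simulated data. All 60 pairs of libraries within groups differed by more than sampling noise (chi-squared over degrees of freedom at least 142.5).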

Additional observations from a re-analysis of the deposited data

Results flagged for a closer look

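In 9 of 24 groups of 5 libraries (3 rows and the summed family, each in 6 groups) a sample stood apart from the other 4 by its gap over the range; the limit passes about 1 in 20 groups of normally distributed values, which CPM are not, and the summed family repeats the 3 rows. At 32 °C replicate 5 of the LPS fish stood apart in dre-miR-144-5p (8472 CPM, next 1434), dre-miR-451 (24957 CPM, next 2259), ssa-miR-144-5p (3791 CPM, next 1000.1) and the family's share of counts (2.01%, next 0.429%). Replicate 7 of the 32 °C controls stood apart in dre-miR-144-5p (18404 CPM, next 3718), dre-miR-451 (52781 CPM, next 7886) and the family's share (5.19%, next 1.32%). ssa-miR-144-5p stood apart at 28 °C in replicate 1 of the LPS fish (2346 CPM, next 489) and in replicate 3 of the controls (369 CPM, next 85.6).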

How the results depend on the processing

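With edgeR, 2 family rows passed between 32 and 24 °C. The count was 1 under DESeq2, total-count scaling, the stricter count filter, zebrafish rows only, the replicate block, equal totals, without the 4 deepest libraries and, added after seeing the data, without the 2 libraries of highest family share; it was 0 with the log2 total as covariate, and ran from 1 to 4 over single left-out libraries. oni-miR-451b was not among the rows tested with the stricter filter, zebrafish rows only or equal totals, and DESeq2 gave it no adjusted p. pny-miR-144, which did not pass the filter with all libraries, passed it and was called higher at 32 °C in all left-out runs but 4 (without 32 °C LPS replicate 5 or 32 °C control replicates 7, 8 or 9), which brings the count above 2. Those 4 libraries are the ones through which it passed the filter. Its calls are thus no support for a change of the family. The count was 4 without 24 °C control replicate 3, 28 °C LPS replicate 5, 32 °C LPS replicate 2 or 32 °C control replicates 3 or 6, and 1 without 32 °C LPS replicate 5 or 32 °C control replicate 7. The count of 0 became 1 for LPS at 28 °C, LPS averaged, 24 minus 28 °C averaged, and 32 minus 28 °C and 24 minus 28 °C in LPS fish (DESeq2), 32 minus 28 °C averaged (DESeq2, voom), and 32 minus 24 °C and 32 minus 28 °C in controls (voom). These DESeq2 calls were all of ccr-miR-144, which had 0 CPM in every 28 °C LPS library, and these voom calls all of oni-miR-451b. Over left-out libraries the count ran from 0 to 2 for 32 minus 28 °C (2 without 28 °C LPS replicate 8) and from 0 to 1 for 32 minus 24 °C in controls (1 without replicate 3 of the 32 °C controls). In both runs pny-miR-144 was among the rows called. Counts in the other comparisons did not change under any alternative run. The cause was not tested for these changes.

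For dre-miR-144-5p, 32 minus 24 °C, the replicate block gave 2.53 (adjusted p = 0.118) and leaving out the 4 deepest libraries gave 1.33 (0.371); left-out libraries gave 1.52 to 3.02. For ssa-miR-144-5p in that comparison, left-out libraries gave 1.46 to 2.86, and it passed in 4 of them. With rows of one name summed, the zebrafish and salmon miR-144-5p rows became a single row, which passed (2.57, edgeR adjusted p = 0.00898). dre-miR-451 passed without 24 °C control replicate 3 (1.76, 0.0490) and otherwise ran from 0.08.

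Differences that did not pass changed sign as follows. For dre-miR-451, 32 minus 24 °C became -0.41 with the log2 total as covariate, -0.63 without the 4 deepest and -0.66 without the 2 highest libraries. Its 32 minus 28 °C became -0.56 with DESeq2, -0.048 with voom, -0.042 with the replicate block, -0.62 with the covariate, -1.17 without the 4 deepest, -1.12 without the 2 highest, and ran from -0.634 to 1.111 over left-out libraries. Within controls 32 minus 24 °C became -0.35 with the covariate, -0.46 without the 4 deepest and -0.35 without the 2 highest, and ran from -0.45 to 2.46 over left-out libraries. Within LPS fish it became -0.32 with voom, -0.58 with the replicate block, -0.46 with the covariate, -0.79 without the 4 deepest and -0.97 without the 2 highest, and ran from -0.82 to 1.74. LPS minus control became 0.77 at 28 °C with the replicate block, and at 32 °C ran from -2.90 to 0.17. For dre-miR-144-5p LPS minus control became 0.78 at 24 °C with voom and 0.41 at 28 °C with rows of one name summed; left-out libraries gave -1.12 to 0.19 at 24 °C, -0.70 to 0.053 at 28 °C and -1.93 to 0.40 at 32 °C. For ssa-miR-144-5p LPS minus control became 0.65 at 24 °C with the replicate block, and averaged -0.11 with voom. Left-out libraries gave -1.27 to 0.34 at 24 °C, -1.71 to 0.30 at 32 °C and -0.23 to 0.93 averaged. With rows of one name summed, the joined miR-144-5p row gave 0.41 at 28 °C, unlike dre-miR-144-5p in sign. Averaged over temperatures it gave -0.57, unlike ssa-miR-144-5p in sign.

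Without the 4 deepest libraries r between dre-miR-144-5p and dre-miR-451 was -0.0445, and of the log2 total with dre-miR-451 -0.41. The relations of the log2 total with dre-miR-144-5p and ssa-miR-144-5p no longer passed at total-count scaling (0.46 and 0.42) or without the 4 deepest (0.39 and 0.24). For the ratio, chosen after seeing the data like its alternatives, 32 minus 24 °C passed throughout except in controls only (2.48) and with both rows summed in LPS fish only (2.90); left-out libraries gave 2.10 to 2.95. Its 32 minus 28 °C passed with both rows summed (1.502), also without libraries under 6 counts (1.51) or without the 2 highest (1.69), and ran from 1.30 to 2.38 over left-out libraries, passing in 5 of 20.

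Same-numbered samples deviated together little in most of 8 pairs (r from -0.08 to 0.32). The 2 pairs above 0.1 were both at 32 °C (replicate 3, r = 0.32, and replicate 7, r = 0.24). The labels do not say what the numbers mark, and so few pairs cannot show if they share a tank, day or batch. The setting with only the groups compared equals the full model for LPS averaged and the interaction and was not run there. Of the 210 values of the minor rows 165 are 0.

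Over all tested rows, 60 passed between 32 and 24 °C with edgeR, 103 with voom, 71 with DESeq2, 32 with the replicate block, 33 without the 2 highest libraries, 16 without the 4 deepest and 1 with the log2 total as covariate; between 32 and 28 °C 10 passed with edgeR, 55 with voom, 25 with DESeq2 and 0 with only the groups compared. The median row at 32 minus 24 °C was 0.81 with TMM, 0.40 with RLE, 0.27 with DESeq2 and 0.18 with total-count scaling. For LPS minus control at 24, 28 and 32 °C, where edgeR passed 0 rows each, DESeq2 passed 25, 19 and 5, and voom 0, 4 and 1; averaged over temperatures edgeR passed 2, DESeq2 21 and voom 0.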
